A study of Homo sapiens with 16 samples.

Results

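The interaction of mitomycin C (MmC) and growth differentiation factor 11 (GDF11) was measured as the GDF11 difference in MmC+ libraries minus the GDF11 difference in MmC- libraries. It was computed from the raw counts of all 16 of the 16 libraries, 4 in each of 4 groups, for the 19103 genes of 60649 that passed a filter on low counts. On the log2 scale used below, an interaction of 0 is the same fold response to GDF11 in both MmC arms, and an interaction of 1 is a 2-fold higher ratio of GDF11+ to GDF11- after MmC than without it.

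All libraries came from ASC52telo, 1 immortalized line of adipose mesenchymal stem cells (MSCs) with the genotype label wt, so donors were not compared. MmC+ cells were exposed to 1.5 µg/mL MmC for 18 h, and GDF11+ cells were then given 10 ng/mL of recombinant GDF11 during the next 10 days. The groups were MmC-/GDF11- (neither agent), MmC-/GDF11+ (GDF11 on intact cells), MmC+/GDF11- (MmC alone) and MmC+/GDF11+ (both). The labels number the libraries of each group from 1 to 4 and give all 16 the same sequencing run, and they do not say whether equal numbers share a culture, so the p-values below measure the spread between these libraries, which may in part be technical.

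MmC crosslinks DNA, and cells that survive it stop dividing through p53 and CDKN1A and begin to secrete cytokines and proteases, a state called stress-induced senescence. GDF11 is a ligand of the TGF-beta superfamily that binds the activin type II receptors ACVR2A and ACVR2B and type I receptors such as ACVR1B and TGFBR1, which phosphorylate SMAD2 and SMAD3. An interaction asks whether cells made senescent by MmC answered GDF11 in the same way as intact cells.

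The total count was between 71275337 and 144204979 per library, and the MSC surface markers NT5E (CD73), THY1 (CD90) and ENG (CD105) had mean levels of 726, 909 and 563 CPM (counts scaled to library size with TMM factors). Of the blood cell markers, HLA-DRA had no count in any group, while CD14 was 1.28 to 2.12 CPM without MmC and 1.96 to 4.80 CPM after it. Of 19 markers of other cell types 12 passed the filter, and their summed level, which rested mostly on the endothelial receptor TEK, was between 58.3 and 129 CPM. The first principal component, with 64.8% of the variance, separated the MmC arms, and the second, with 12.2%, separated the 4 libraries numbered 1 (scores 25.3 to 63.96) from the other 12 (-22.4 to -8.63). Library 2 of MmC-/GDF11+ had 1.58% of its counts on mitochondrially encoded genes where the other MmC- libraries had 2.77 to 3.11%.

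No gene had an interaction at an adjusted p under 0.05 by edgeR's quasi-likelihood test (0 of 19103, 0%), by DESeq2 or by limma-voom. Without adjustment, 172 genes (0.9% of those tested) had p under 0.05 by edgeR, 137 by DESeq2 and 147 by limma-voom. Among genes without an interaction, a calibrated test gives such a p to a share of about 0.05, so these tests ran conservative. Their fits have no term for the replicate number. With a replicate block within each MmC arm, 645 genes had p under 0.05 by edgeR. Of the 172, 101 lay above 0 (0.529%) and 71 below 0 (0.372%). The median interaction of all tested genes was -0.00, and 48.7% of them lay above 0.

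The interaction took as small a share of the differences between libraries as GDF11 itself. Of the sum of squares of log2 CPM over all tested genes, MmC held 63.5%, GDF11 averaged over the arms 1.27% and the interaction 1.38%, each with 1 degree of freedom. The replicate number by MmC by GDF11, which is what remains between same-numbered sets of 4 libraries, held 1.36% per degree of freedom, and the replicate number alone 5.72%. The share of the interaction was thus at the level of the remainder.

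**Figure D1:**
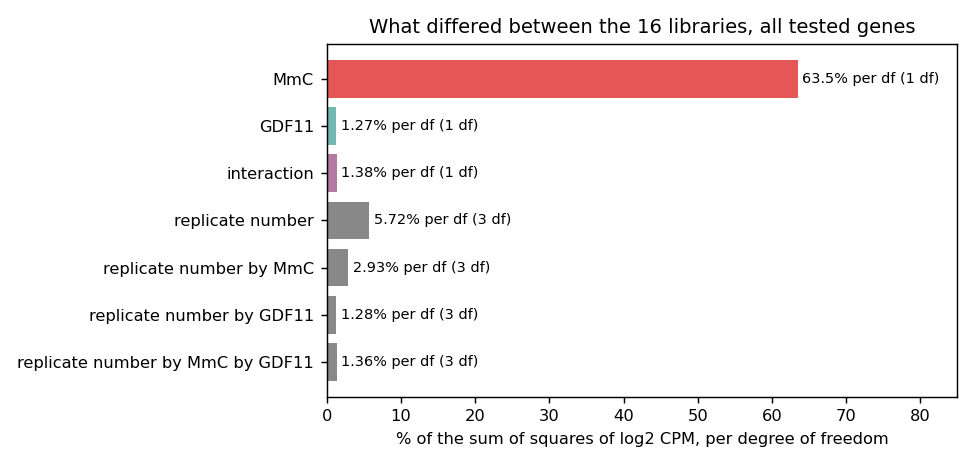
Percent of the sum of squares of log2 CPM over 19103 genes and 16 libraries, per degree of freedom (df, x axis), for each factor of the design and for the replicate number and its products with the factors. MmC reaches 63.5%, while GDF11 (1.27%), the interaction (1.38%) and the 3-way remainder (1.36%) are alike.

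How closely an interaction could be bounded depended on the level of the gene. For 13014 genes (68.1%) the 95% interval of the interaction lay within 1 log2 unit of 0. Among the 7203 genes with a mean between 10 and 100 CPM this held for 95.1%, with a median half-width of 0.36, and among the 1970 genes above 100 CPM for 94.5%, with 0.37. Between 1 and 10 CPM it held for 80.5% of 3967 genes. Below 1 CPM it held for 18.6% of 5963 genes, with a median half-width of 1.12, so that a 2-fold difference in response was not detectable for most genes of this level.

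The genes through which GDF11 is sensed gave intervals around 0 of unlike width, such as -0.18 to 0.21 for SMAD2 and -0.76 to 0.85 for ACVR1C. All 14 tested receptor and SMAD genes had intervals within 1 log2 unit, with a median interaction of 0.02. An unadjusted p under 0.05 was reached by 0 of them and by 0.9% of all tested genes. ACVR2A, a type II receptor for GDF11, had the highest value of the list, 0.20 (95% interval -0.11 to 0.51). Its GDF11 difference was -0.22 (standard error 0.104) without MmC and -0.02 (0.104) after MmC. ACVR1B and TGFBR1, the type I receptors, had 0.01 and -0.05, and the signal carriers SMAD2, SMAD3 and SMAD4 had 0.02, 0.09 and 0.02. SKIL, a co-repressor that restrains SMAD transcription and is induced by it, had the lowest value, -0.17 (-0.91 to 0.56).

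GDF11 mRNA itself (ENSG00000135414.10, hg38 chromosome 12 from 55743122 to 55757264) was 18.7, 18.8, 18.9 and 19.8 CPM in MmC-/GDF11- (libraries in the order of their numbers, here and below) and 17.3, 17.1, 18.6 and 21.2 CPM in MmC-/GDF11+. After MmC it was 27.3, 23.3, 20.7 and 22.7 CPM without and 26.6, 25.1, 22.5 and 21.5 CPM with the protein. The GDF11+ and GDF11- libraries overlapped in both arms, and the interaction was 0.06 (-0.24 to 0.36), above 0 in 3 of 4 replicate numbers. The MmC difference of this gene was 0.30 without and 0.37 with GDF11 (adjusted p = 0.0216 and 0.00712, edgeR). Among the 8 tested ligands of the family, the interaction ran from -0.33 for GDF15, a stress-induced cytokine, to 0.14 for TGFB3, with a median of -0.00. Of 9 tested antagonists 7 lay above 0, with a median of 0.07. Follistatin (FST), which binds GDF11 and activins, had 0.12, and the related FSTL3 had the lowest value, -0.18 (-0.80 to 0.44).

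No target gene of SMAD2/3 passed the test, as no tested gene did. Of 25 tested, 10 lay above 0 and 15 below, and the median was -0.03 against -0.00 for all genes. An unadjusted p under 0.05 was reached by 0 of the 25 and by 0.9% of all tested genes, so this count does not set the list apart. Intervals within 1 log2 unit of 0 were found for 12 of the 25. SMAD7, the inhibitory SMAD that TGF-beta signalling induces, was 12.1, 13.1, 13.1 and 12.6 CPM in MmC-/GDF11- and 10.6, 14.1, 10.9 and 13.5 CPM in MmC-/GDF11+. Its values after MmC were 14.0, 38.2, 30.4 and 24.97 CPM without and 14.2, 29.9, 33.0 and 24.6 CPM with GDF11. MmC moved SMAD7 up in both arms (1.08 and 1.05, adjusted p = 0.00389 and 0.00445, edgeR), while the GDF11+ libraries overlapped their controls in both arms, and the interaction was -0.03 (-0.82 to 0.76).

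The collagens COL1A1, COL1A2 and COL3A1, structural proteins of the matrix, had interactions of 0.09 (-1.51 to 1.69), 0.05 (-0.95 to 1.06) and 0.11 (-1.32 to 1.54). These intervals were wide despite high levels. CCN2, a matricellular growth factor, had -0.20 (standard error 0.605). Of 26 extracellular matrix genes 20 lay above 0, with a median of 0.08, and 13 had intervals within 1 log2 unit of 0. The median by replicate number was 0.29, -0.32, 0.09 and 0.15, so its sign was not shared by all 4 sets of libraries. An unadjusted p under 0.05 was reached by 0 of the 26 and by 0.9% of all tested genes.

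Genes driven by BMP signalling through SMAD1/5, a branch that TGF-beta ligands can also reach, had 4 of 10 members above 0 and a median of -0.03. None of the 10 passed the test, as no tested gene did. ID1, an inhibitor of differentiation factors, was 68.7, 68.5, 56.4 and 32.9 CPM in MmC-/GDF11- and 50.5, 69.9, 57.6 and 51.4 CPM in MmC-/GDF11+. Its values after MmC were 4.95, 18.3, 16.3 and 19.1 CPM without and 5.18, 18.2, 17.7 and 17.1 CPM with GDF11. The fall of ID1 after MmC was -1.95 and -1.97 (adjusted p = 0.00133 and 0.00118, edgeR), and the interaction was -0.03 (-1.22 to 1.17). Same-numbered MmC+ libraries with and without GDF11 were close to each other, also where number 1 stood far below the rest.

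**Figure D2:**
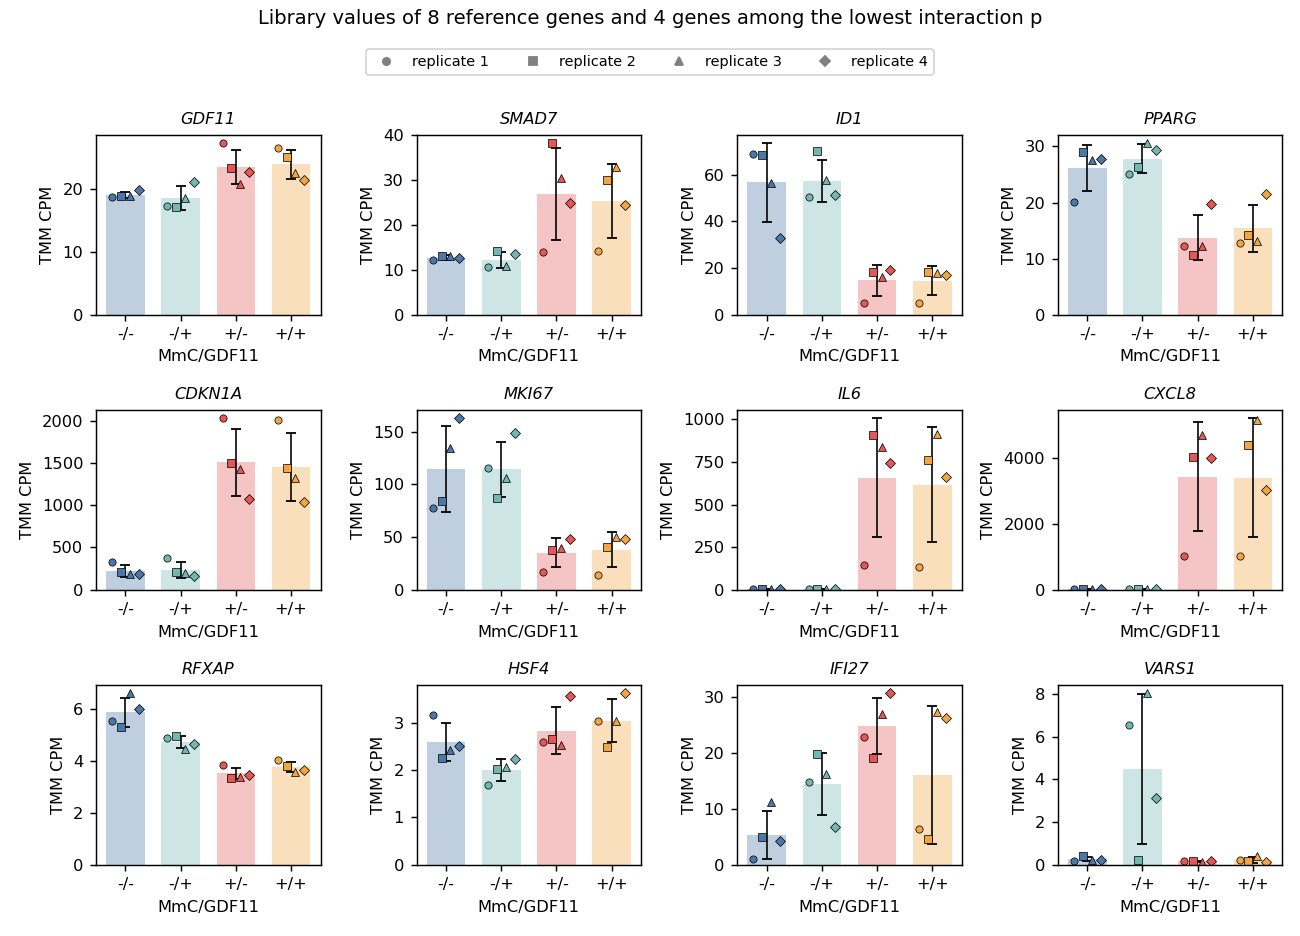
Level of 12 genes (y axis, TMM CPM, from 0) in the 4 groups, named as MmC/GDF11 (x axis). Bars are means of 4 libraries, error bars SD and symbols the replicate numbers. In the upper 8 genes the pair of bars without MmC and the pair after MmC are each alike. In the lowest panels RFXAP, HSF4 and IFI27 differ in how the pairs are ordered. VARS1 has the GDF11+ bar higher in both pairs, far higher without MmC (4.49 against 0.263 CPM) and little after it (0.235 against 0.166 CPM).

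The secretory genes, which MmC raised most among the lists, had close median MmC differences with and without GDF11. Of 35 tested, 21 had an interaction above 0 and 14 below, and the median was 0.07. An unadjusted p under 0.05 was reached by 0 of the 35 and by 0.9% of all tested genes. Their median MmC difference was 4.82 without and 4.77 with GDF11. IL6 was 145.6, 905, 840 and 741 CPM in MmC+/GDF11- and 134, 759, 911 and 663 CPM in MmC+/GDF11+, while no MmC- library exceeded 6.73 CPM. The MmC difference of IL6 was 7.38 (standard error 0.558) without and 7.29 (0.56) with GDF11 (adjusted p = 1.96e-06 and 2.16e-06, edgeR), and the interaction was -0.09 (-1.78 to 1.59). CXCL8, a neutrophil chemokine, had MmC differences of 7.44 and 7.45 and an interaction of 0.01 (-1.36 to 1.38). These intervals were wide, with number 1 far below the other libraries in both MmC+ groups, and 7 of the 35 lay within 1 log2 unit. The fit has no term for the replicate number, and same-numbered libraries gave closer values, -0.23, 0.25, -0.06 and 0.01 for CXCL8 and -0.24, -0.55, 0.11 and 0.42 for IL6. With a replicate block the count within 1 log2 unit was 14 of 35, and with a block within each MmC arm 28 of 35, but the labels do not say that equal numbers pair the libraries.

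Some genes of this list had almost no counts in intact cells. CSF3 (G-CSF) had 14 counts summed over MmC-/GDF11- and 1 over MmC-/GDF11+ against 7395 and 8034 after MmC, and its fitted interaction of 2.85 had a standard error of 6.48. CCL20, a chemokine for dendritic cells and lymphocytes, had 35 and 20 counts without MmC, and its interaction of 0.47 had an interval of -3.48 to 4.42. MMP13 had the lowest value of the list, -2.94. The lowest at 1 CPM or more was that of IL1A, an upstream cytokine of the secretory programme, -0.47 (-1.74 to 0.81). VEGFA, an angiogenic factor made by MSCs, had -0.06 (-0.92 to 0.79).

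The p53 response was measured more tightly. Of 28 target genes 23 had intervals within 1 log2 unit of 0, the median was -0.02, and 10 lay above and 18 below 0. CDKN1A (p21, the inhibitor of cyclin-dependent kinases that holds senescent cells in arrest) was 330, 211, 182 and 181 CPM in MmC-/GDF11- and 375, 207, 195 and 166 CPM in MmC-/GDF11+. In MmC+ libraries it was 2031, 1496, 1425 and 1075 CPM without and 2007, 1440, 1319 and 1040 CPM with GDF11, about as far above the intact libraries in both cases. Its MmC difference was 2.74 without and 2.62 with GDF11 (adjusted p = 3.89e-06 and 5.80e-06, edgeR), and the interaction was -0.12 (-0.95 to 0.72), above 0 in 1 of 4 replicate numbers. The highest value was that of TP53INP1, a stress-induced p53 cofactor (0.14), and the lowest that of GDF15 (-0.33).

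Cell cycle genes, whose median level was lower after MmC, had no member that passed the test, as no tested gene did. Of 45 tested, 20 had intervals within 1 log2 unit, 26 lay above and 19 below 0, with values between -0.21 for the replication licensing factor CDC6 and 0.17 for the mitotic kinesin KIF20A. The median by replicate number was -0.62, 0.09, 0.30 and 0.07, and the median of the list ranged from -0.20 to 0.23 over the settings tried. The median MmC difference was -1.74 without and -1.63 with GDF11. MKI67, the proliferation antigen Ki-67, was 77.5, 84.2, 135 and 163 CPM in MmC-/GDF11- and 115, 87.4, 106 and 149 CPM in MmC-/GDF11+. In MmC+ libraries it was 16.4, 37.4, 39.6 and 47.9 CPM without and 13.7, 40.9, 49.8 and 48.0 CPM with GDF11. No MmC+ library reached the level of an MmC- library, and the interaction was 0.12 (-1.01 to 1.25), from -0.83 in the libraries numbered 1 to 0.68 in those numbered 3. In bulk RNA, fewer dividing cells and less of the transcript per cell cannot be told apart. PLK1, a mitotic kinase, had MmC differences of -3.64 and -3.59 and an interaction of 0.05 (-0.78 to 0.87).

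The genes that answered MmC were also compared without regard to pathway. Averaged over GDF11, 11657 genes (61% of those tested) differed with MmC at an adjusted p under 0.05 by edgeR's quasi-likelihood test, and 3437 of them by at least 2-fold, 2264 raised and 1173 lowered. In all 3437 the MmC difference had the same sign with and without GDF11, which choosing them on the average over GDF11 nearly fixes, and that choice also favours a small ratio of interaction to MmC difference. The median size of the MmC difference was 1.55 and the median size of the interaction 0.18, and the median gene had an interaction of 10.8% of its MmC difference. For the raised genes the median MmC difference was 1.76 without and 1.72 with GDF11, and for the lowered genes -1.37 and -1.34. In 2302 of the 3437 genes (67.0%) the interval of the interaction excluded values as large as the MmC difference. In 37 genes the interaction was larger than the MmC difference, and 36 of these had a mean below 1 CPM (32 genes) or over 50% of their exonic sequence on alternate contigs, described below (11 genes).

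**Figure D3:**
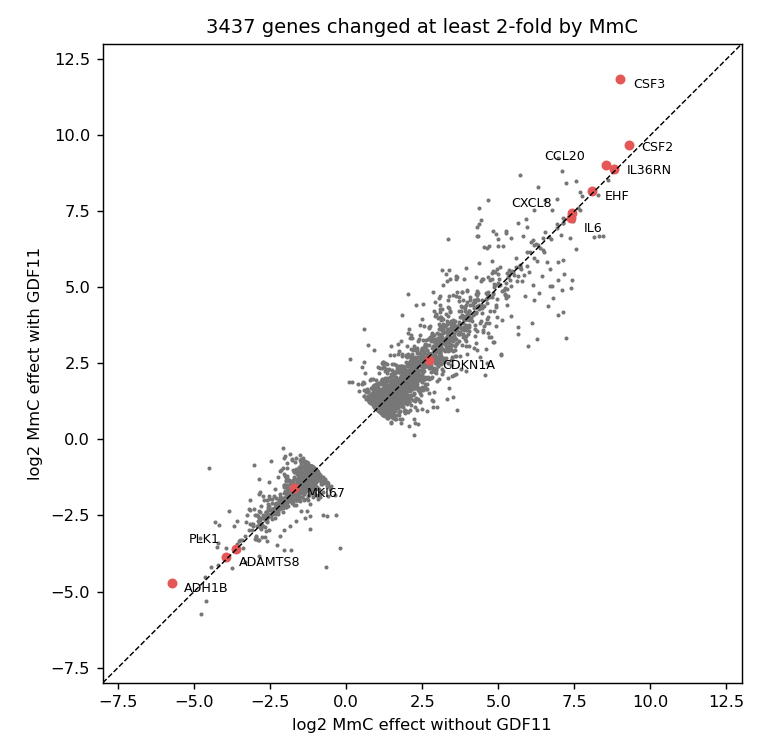
Log2 MmC effect without GDF11 (x axis) against the effect with GDF11 (y axis) for the 3437 genes that MmC changed at least 2-fold on average. The dashed line marks equal effects; genes named in red, from ADH1B and PLK1 below 0 to IL6, CXCL8 and CSF2 above, lie on or near it, and CSF3, which had 1 count in MmC-/GDF11+, lies above it.

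Lists of genes of MSC lineages and functions had medians between -0.04 and 0.11, with intervals of unlike width. PPARG, the master regulator of adipocytes, was 10.7 to 19.7 CPM in MmC+/GDF11- and 12.7 to 21.6 CPM in MmC+/GDF11+, against 20.01 to 29.1 and 25.2 to 30.6 CPM without MmC. Its interaction was 0.07 (-0.51 to 0.65), and 11 of 17 adipocyte genes lay above 0 with a median of 0.07. The lowest value was -1.14 for LEP, and 6 of the 17 had intervals within 1 log2 unit of 0. ADH1B, an alcohol dehydrogenase of adipose tissue that MmC lowered, had 1.01 with an interval of -1.87 to 3.89. The 9 tested osteoblast genes had a median of 0.11, and RUNX2, their master regulator, had 0.16. Their values ran from -1.63 for IBSP to 0.61 for OMD, and 3 of the 9 had intervals within 1 log2 unit of 0. Of the 21 pro-angiogenic genes 10 lay above 0. CXCL12, a chemokine that retains haematopoietic cells, was the highest of them at 1 CPM or more, with 0.27 (-0.30 to 0.84). It was above 0 in 4 of 4 replicate numbers, as were 4.92% of all tested genes, and choosing the highest of a list favours this. The 9 MSC surface markers all had intervals within 1 log2 unit and a median of 0.01.

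Of the 22 genes of PI3K, Akt and FOXO signalling, which insulin and growth factor receptors use, 19 had intervals within 1 log2 unit and the median was -0.01. PIK3CA had -0.01, AKT1 -0.04, MTOR 0.00 and FOXO3 0.06. RPTOR, the scaffold of mTOR complex 1, had the lowest value among those with at least 1 CPM, -0.14 (-0.39 to 0.12). It was below 0 in 4 of 4 replicate numbers, as were 5.15% of all tested genes, and choosing the lowest of a list favours this. PIK3R2, a regulatory subunit of PI3K with a mean of 0.253 CPM, had -0.85 at an unadjusted p of 0.0422 by edgeR. Besides PIK3R2, the list members at an unadjusted p under 0.05 were IFI27 of the interferon list and KDR (VEGF receptor 2) of the markers of other cell types, which had -1.74 at a mean of 0.0883 CPM.

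**Figure D4:**
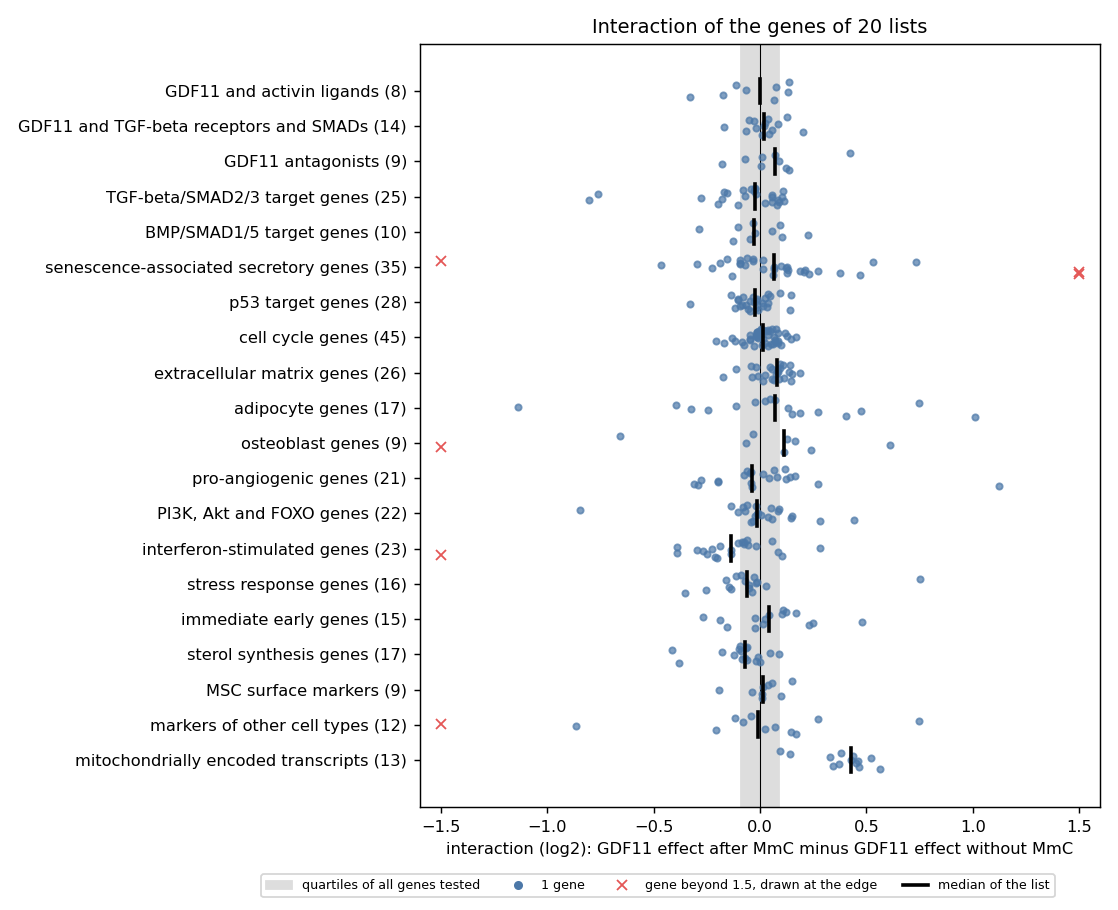
Interaction (x axis, log2) of each tested gene in 20 lists (y axis, number of tested genes in brackets), with the median of each list as a black bar and the middle 50% of all tested genes as a grey band. Most medians lie in or at the band, that of the interferon-stimulated genes is -0.13 and that of the mitochondrially encoded transcripts 0.43.

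Interferon-stimulated genes lay mostly below 0, with 4 of 23 above 0 and a median of -0.13. Their median GDF11 difference was 0.16 without MmC and 0.05 after it. By replicate number the median of the list was -0.80, -0.15, -0.17 and 0.83, without the libraries numbered 1 it was 0.20 and without number 1 of MmC-/GDF11+ alone 0.12, so neither its sign nor its size was shared. ISG15, a ubiquitin-like modifier, had -0.39 (standard error 0.378), IFI6, an antiviral protein of the endoplasmic reticulum, -0.39 (0.313), and the antiviral effectors IFIT1 and MX1 -0.27 and -0.19.

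IFI27 (hg38 chromosome 14 from 94104836 to 94116695), an interferon-induced mitochondrial protein, had the lowest value of the list, -2.05 (-3.89 to -0.22) at an unadjusted p of 0.0320 and an adjusted p of 1.00 by edgeR. It was 1.03, 4.93, 11.2 and 4.22 CPM in MmC-/GDF11- and 14.8, 19.8, 16.2 and 6.73 CPM in MmC-/GDF11+. After MmC it was 22.8, 19.1, 26.9 and 30.6 CPM without and 6.30, 4.55, 27.2 and 26.1 CPM with GDF11. In intact cells each GDF11+ library was above the library of its number, and after MmC numbers 1 and 2 were far below theirs while numbers 3 and 4 were near them. The interaction was below 0 in 4 of 4 replicate numbers, from -5.68 to -0.51, as in 5.15% of all tested genes, and the same-numbered GDF11 differences of both arms did not overlap, as in 1.18% in this direction. IFI27 was named for a low p below 0, and that choice favours both. All of the exonic sequence of IFI27 also lies on alternate contigs, as described below.

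The 13 mitochondrially encoded transcripts, subunits of the respiratory chain and ATP synthase, all lay above 0, with a median of 0.43, and 8 of them were above 0 in all 4 replicate numbers (4.92% of all tested genes were). The summed level of the 13 was 9891 CPM in number 2 of MmC-/GDF11+ and 21192 to 22321 CPM in the other libraries of that group. The members thus moved together there, and the 8 are not separate observations. None of the 13 had an unadjusted p under 0.05, which 0.9% of all tested genes had. MT-ATP6, a subunit of ATP synthase, was 1671, 1468, 1635 and 1967 CPM in MmC-/GDF11- and 1543, 476, 1560 and 1573 CPM in MmC-/GDF11+. After MmC it was 2257, 1884, 2545 and 2343 CPM without and 2397, 2713, 2639 and 2437 CPM with GDF11. Replicate 2 of MmC-/GDF11+ stood apart, and the median of the list by replicate number was 0.14, 1.48, 0.09 and 0.23. Without that library it was 0.19, and without all libraries numbered 2 it was 0.16. MT-ATP6 had an interaction of 0.56 (-0.22 to 1.34), and 63.8% of its exonic sequence also occurs elsewhere on the primary chromosomes.

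Protein-coding genes with a mean of at least 1 CPM and at most 50% same-strand overlap with another gene were ranked by p. Those with the lowest p were mostly genes with a second copy in the reference. The hg38 assembly holds alternate contigs, second versions of some chromosome regions, and how reads that match both were counted is not given in the sources used here. Of the first 8 such genes above 0 and the first 8 below, 9 had over 50% of their exonic sequence (as words of 31 bases) on alternate contigs. These were HRAS above 0, and all 8 below 0. Among all tested genes 330 (1.73%) did. For VAMP7, EIF3CL and GTF2IRD2B, over 50% occurred elsewhere on the primary chromosomes. RFXAP, SRD5A3, CYP3A7 and HSF4 had neither. Without the limits on coding and overlap, 22 genes at 1 CPM or more had an unadjusted p under 0.05 by edgeR. Of these, 8 (36.4%) lay over 50% on alternate contigs. Of the 32 genes at 1 CPM or more with an interaction beyond 1 log2 unit, 16 (50.0%) lay over 50% on alternate contigs, against 143 of 13140 genes (1.09%) at that level. The part of the second copies in these values was not tested.

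Several of these genes, though not GTF2IRD2B (4.49 to 6.44 CPM in all 16 libraries), lay on separate levels within a group. HRAS, a small GTPase, was 12.6, 0.424, 21.3 and 0.540 CPM in MmC-/GDF11-, at most 0.389 CPM in MmC-/GDF11+, and at most 2.10 CPM in the MmC+ groups. The interaction of 4.79 ranged from -2.13 to 8.58 over the replicate numbers. INTS3, a subunit of the Integrator complex, was 6.61, 0.402, 8.04 and 2.89 CPM in MmC-/GDF11+ and 6.14, 0.478, 3.18 and 4.53 CPM in MmC+/GDF11-, with at most 0.559 CPM in MmC-/GDF11-. EEF1D, an elongation factor subunit of which 34.0% overlaps an antisense gene, reached 60.3 CPM in number 4 of MmC-/GDF11+, while no other library exceeded 7.46 CPM. LY6E, a surface protein induced by interferon, reached 56.9 CPM in number 1 of MmC+/GDF11-, with 7.01 CPM as the next highest value. EIF3CL, which encodes a translation initiation subunit and has a near-identical neighbour, reached 17.2 CPM in number 3 of MmC+/GDF11+, against 1.06 to 2.11 CPM in the others.

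VARS1, the cytosolic valyl-tRNA synthetase, had -3.54 (-5.73 to -1.34) at an unadjusted p of 0.00391 and an adjusted p of 1.00 by edgeR. Without replicate 2 of MmC-/GDF11+, the library of that group at the level of the other groups, its adjusted p was 0.0816, the lowest of any gene in any setting tried. SCRIB, a scaffold of cell polarity, had -1.73 (-3.08 to -0.39) and was below 0 in 4 of 4 replicate numbers, as were PUF60, a splicing factor (-1.33), and EEF1D (-2.14). That held for 5.15% of all tested genes, and choosing genes by a low p below 0 favours it. EEF1D had -2.93 in number 4 and -0.77 to -0.19 in the other numbers. SCRIB, PUF60 and EEF1D lie close together on chromosome 8, and all had over 50% of their exonic sequence on alternate contigs.

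**Figure D5:**
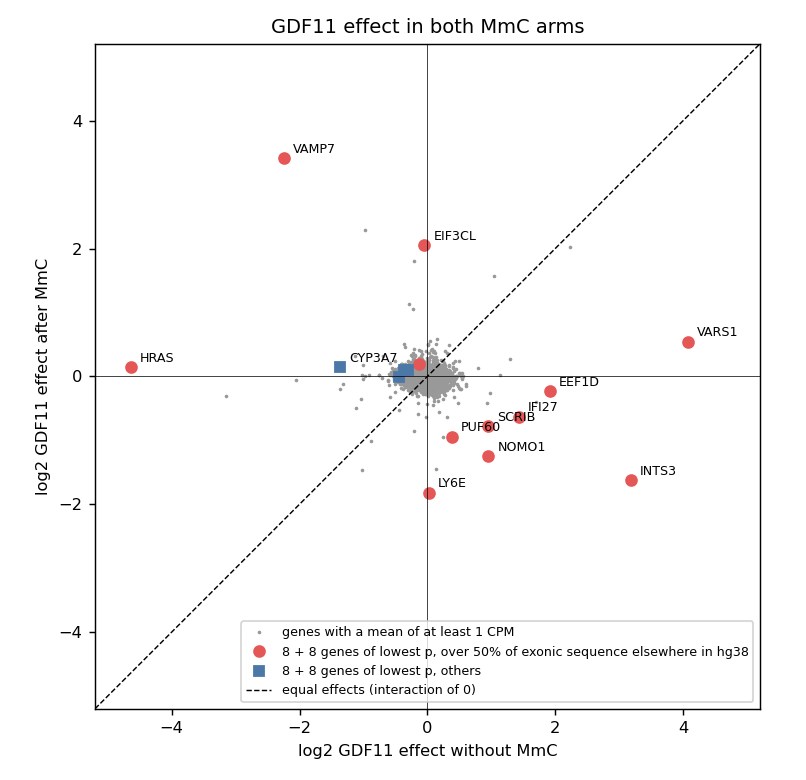
Log2 GDF11 effect without MmC (x axis) against the effect after MmC (y axis) for genes with a mean of at least 1 CPM. The 16 protein-coding genes named for a low p are marked by whether over 50% of their exonic sequence occurs elsewhere in hg38 (red circles) or not (blue squares). The outlying HRAS, VAMP7, INTS3 and VARS1 are red, and the blue squares lie near the centre except CYP3A7.

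Among the protein-coding genes named for a low p, the 4 without such a copy were each above 0 in 4 of 4 replicate numbers. So were 4.92% of all tested genes, and choosing genes by a low p above 0 favours this. RFXAP (ENSG00000133111.4, hg38 chromosome 13 from 36819222 to 36829104), a subunit of the RFX complex that activates MHC class II promoters, had 0.40 (0.10 to 0.71) at an unadjusted p of 0.0134 and an adjusted p of 1.00 by edgeR. It was 5.54, 5.31, 6.59 and 5.99 CPM in MmC-/GDF11- and 4.89, 4.95, 4.45 and 4.66 CPM in MmC-/GDF11+. In MmC+ libraries it was 3.84, 3.36, 3.38 and 3.46 CPM without and 4.03, 3.79, 3.59 and 3.63 CPM with GDF11. In intact cells every GDF11+ library was below every GDF11- library, while after MmC the groups overlapped, each GDF11+ library 0.07 to 0.18 log2 units above the library of its number. Such a separation without MmC and overlap after it was found in 96 of all tested genes (0.503%), and a low p of the interaction favours it. The MmC difference of RFXAP was -0.74 without and -0.33 with GDF11 (adjusted p = 3.82e-05 and 0.0146, edgeR).

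SRD5A3, a polyprenol reductase needed for protein N-glycosylation, had 0.43 (0.01 to 0.85) at an unadjusted p of 0.0468 by edgeR. It was 2.60, 1.94, 2.22 and 2.25 CPM in MmC-/GDF11-, 1.96, 1.46, 1.598 and 1.597 CPM in MmC-/GDF11+, 2.78, 2.17, 2.501 and 3.02 CPM in MmC+/GDF11- and 2.502, 2.54, 2.51 and 2.81 CPM in MmC+/GDF11+. Same-numbered GDF11 differences were -0.49 to -0.40 without MmC and -0.15 to 0.23 after it, without overlap. This held for 477 of all genes (2.5%), 251 of them higher after MmC (1.31%), so it did not set SRD5A3 apart.

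HSF4, a heat shock transcription factor, had 0.48 (-0.00 to 0.95) at an unadjusted p of 0.0509 by edgeR. It was 3.16, 2.26, 2.42 and 2.52 CPM in MmC-/GDF11-, 1.68, 2.03, 2.06 and 2.22 CPM in MmC-/GDF11+, 2.59, 2.66, 2.52 and 3.56 CPM in MmC+/GDF11- and 3.04, 2.49, 3.03 and 3.62 CPM in MmC+/GDF11+. HSF4 was another of the 96 genes, its highest GDF11+ value in intact cells, 2.22 CPM, being just below the lowest control, 2.26 CPM. CYP3A7, a fetal cytochrome P450 that MmC raised from 43 summed counts to 1797, had 1.51 (-0.05 to 3.08) at an unadjusted p of 0.0499 by edgeR. It had 15 summed counts in MmC-/GDF11+ and 2183 in MmC+/GDF11+, so its value rested on few counts in intact cells. Of the exonic sequence of SRD5A3, HSF4 and CYP3A7, 23.2%, 27.1% and 42.6% overlaps another gene on the same strand, and how such reads were assigned is not given in the sources used here.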

How the data were processed

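The authors aligned the reads of poly(A) RNA libraries to hg38 with HISAT2 2.2.1, counted them on GENCODE genes with featureCounts 2.0.1 and deposited raw counts per gene. Settings for strand, read pairs and multiply aligned reads are not given in the sources used here. The analysis used edgeR 4.0.16 (R 4.3.3): filterByExpr (minimum count 10, minimum total 15), TMM scaling and a robust quasi-likelihood fit of 1 mean per group over 16 libraries, without a term for replicate number. The interaction was a contrast of the 4 means, with Benjamini-Hochberg adjustment over 19103 genes at 0.05. Intervals (95%) came from the fit's standard errors, so at the edge they can differ from the F-test. Replicate values are differences of log2 CPM (prior count 2).

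Genes named are 12 reference genes and the 8 protein-coding genes of lowest p in each direction with a mean of at least 1 CPM. For this ranking by p, the limit on same-strand overlap given in the Results also applied. Also named were the extreme members of each of 20 lists at 1 CPM or more. The 5 highest and 5 lowest genes by averaged MmC difference were added. Other list members shown, and genes said to be singled out, were picked with their values in view, and some named by the rule are not reported here. The members and lists were chosen with earlier results of these data known. Positions came from GENCODE release 44 on hg38, where 186 identifiers had no match. The share of exonic words of 31 bases on alternate contigs was computed from the same assembly.

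Alternatives were RLE and upper-quartile scaling, no or a strict filter, replicate blocks, limma-voom (limma 3.58.1), DESeq2 1.42.0, 1 surrogate variable (sva 3.50.0), thinning, no robust fit, a prior count of 0.5, and libraries or replicate numbers left out. The block within each MmC arm without replicate 1, the exclusion of genes on alternate contigs and the count of secretory intervals by setting were added after seeing the data. The fit was tested on simulated counts drawn independently for each library, without an effect of the replicate number. That test cannot show how the p-values and intervals hold where libraries differ by number, as they do here.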

Additional observations from a re-analysis of the deposited data

Results flagged for a closer look

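In 152 groups of 4 libraries (38 named genes), the highest or lowest library stood apart from the other libraries of its group in 23, by a gap above Dixon's critical value for 4 values. Chance gives this in about 1 in 20 groups.

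Libraries numbered 1 accounted for several. COL1A1 was 11530 CPM in number 1 of MmC-/GDF11- (next 5501), 5768 in MmC+/GDF11- (next 1689) and 6034 in MmC+/GDF11+ (next 1674). Number 1 was lowest for SMAD3 in MmC-/GDF11+ (129 CPM, next 150.1), for ID1 in MmC+/GDF11+ (5.18, next 17.1) and for CCL20 in MmC+/GDF11- (2.94, next 46.6). It was highest for CYP3A7 in MmC+/GDF11- (6.47) and MmC+/GDF11+ (6.93), for ADH1B in MmC-/GDF11- (134, next 30.3) and for LY6E in MmC+/GDF11- (56.9, next 6.93).

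Number 4 was highest for PPARG in MmC+/GDF11+ (21.6 CPM), SRD5A3 in MmC+/GDF11+ (2.81), HSF4 in MmC+/GDF11- (3.56), EHF in MmC-/GDF11- (0.308) and the lncRNA ENSG00000234810 in MmC+/GDF11- (0.599). It was also highest for HRAS in MmC+/GDF11- (2.03), INTS3 in MmC+/GDF11+ (3.53) and EEF1D in MmC-/GDF11+ (60.3).

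The others were number 2 for VAMP7 in MmC-/GDF11- (4.76 CPM, next 0.367), MT-ATP6 in MmC-/GDF11+ (476, next 1543) and CSF3 in MmC-/GDF11+ (0.0134, a single count, the others at 0), and number 3 for HRAS in MmC+/GDF11+ (2.10) and EIF3CL in MmC+/GDF11+ (17.2, next 1.901).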

How the results depend on the processing

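The count of genes at an adjusted p under 0.05 was 0 in every one of the 32 alternative settings. The count at an unadjusted p under 0.05, 172 as reported, was 687 without a filter (41196 genes tested), 66 with at least 10 counts in every library (15416 genes), 296 with the replicate block (149 shared with the 172), 645 with a replicate block within each MmC arm (146 shared) and 655 with that block and without replicate 1. It was 154 to 229 with 1 library and 125 to 222 with 1 replicate number left out, and 137 to 248 in the other settings. The share of variance of the interaction was 1.58% with a prior count of 0.5, 1.75 to 1.95% without a replicate number and 1.23% without genes on alternate contigs. The cause was not tested. The numbers were not taken to pair the libraries, since the labels do not say so, but same-numbered libraries tended to deviate alike. The correlation of same-numbered deviations from group means ran from 0.0293 to 0.818 over the pairs of groups. In each pair of groups, 3 or 4 of 4 libraries matched their own number best. Of 704 medians of lists and 2360 values of named genes under these settings, 32 and 60 moved by more than the SD between replicate numbers. The count of secretory genes with an interval within 1 log2 unit, 7 of 35 as reported, was 14 with the replicate block, 28 with a block within each MmC arm (also without replicate 1), 19 with 1 surrogate variable, 11 by DESeq2, 4 to 19 with 1 replicate number left out (19 without number 1) and 5 to 9 in the other settings. Depth limits genes below 1 CPM, where 18.6% of intervals lay within 1 log2 unit.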

Other observations

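Further lists not described above also had 0 genes at an adjusted p or an unadjusted p under 0.05 by edgeR's quasi-likelihood test. Of all tested genes, 0% and 0.9% did. Of 16 stress response genes 2 lay above 0, with a median interaction of -0.06 against -0.00 for all genes. DDIT3, a transcription factor of the unfolded protein response, had -0.13, the chaperone HSPA5 -0.02 and TXNRD1, a target of NRF2, -0.11. SRXN1, which repairs oxidized peroxiredoxins, had the highest value, 0.75 (95% interval -0.31 to 1.82), and 90.7% of its exonic sequence overlaps another gene on the same strand. Of 17 sterol synthesis genes 3 lay above 0, with a median of -0.07, and 16 had intervals within 1 log2 unit. INSIG1, which holds the sterol sensor in the endoplasmic reticulum, had the highest value of that list, 0.09.

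Of 15 immediate early genes 10 lay above 0, with a median of 0.04 and medians by replicate number of -0.05, -0.16, 0.28 and 0.00. FOS, a subunit of AP-1, had 0.48 (-1.65 to 2.61), JUN, its partner, 0.04 and KLF4 0.17 (standard error 0.144).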
